A study of Mus musculus with 8 samples.

Results

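ATF4 and the genes of the integrated stress response were followed in TEC100.4 cells, a line derived from cortical thymic epithelial cells of the mouse. A list of 33 genes was used, namely Atf4 itself, the eIF2α kinases Eif2ak3 and Eif2ak4, partner and feedback factors, and targets in amino acid synthesis, transport and stress. A gene's brightest probe stood for it. Of the 33 members, 32 had a probe named by accession and 31 passed the filter on dim probes, among 19023 genes tested in all. Pycr1 has no array values here and enters only the promoter search, and Stc2, which encodes a secreted stanniocalcin, was well above background on 1 of 8 arrays and has no fold.

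The arrays formed 4 groups of 2. The β line carried a doxycycline-inducible mutant of the β isoform of TFII-I, a transcription factor (gene Gtf2i), and the δ line carried the δ isoform of the mutant. Each line was cultured for 24 h with or without doxycycline. By title the untreated cells are the same mutant lines without the drug, while their genotype label names the wild type protein of that isoform. Treated cells that lack a mutant were not analysed here, and the drug therefore cannot be told apart from the protein it induces. The labels do not say whether a line is 1 clone or a pool, nor whether paired arrays stem from separate cultures. The p-values thus reflect only the scatter of these arrays, which may be technical.

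The integrated stress response starts with kinases that phosphorylate eIF2α, which lowers general protein synthesis and lets the ATF4 message be translated more. ATF4 then pairs with other leucine zipper factors on C/EBP-ATF response elements and raises genes that make and import amino acids, while CHOP (Ddit3), TRIB3 and GADD34 (Ppp1r15a) carry the response further or feed back on it. Amino acid shortage acts through GCN2 (Eif2ak4), unfolded proteins in the endoplasmic reticulum through PERK (Eif2ak3), and mitochondrial faults through a relay that also leads to eIF2α. Eif2ak3 and Eif2ak4 are the only eIF2α kinases among the members. Doxycycline can block translation on mitochondrial ribosomes, and blocks of that kind are known to raise ATF4 targets in other cells. The arrays measured mRNA, and phosphorylation and ATF4 protein were not measured.

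Promoter sequence of the members was searched because the list is defined by a common regulator. The core of the C/EBP-ATF response element, TGATGNAA, was sought on both strands in the 250 bases before each annotated start, and no other motif was searched. It occurred in 7 of 35 windows of 29 members (20.0%), against 3.45% of 32851 windows of all genes. The members with a match were Atf3, Chac1, Slc7a11, Asns, Nupr1, Pycr1 and Vldlr. Slc7a11 held 2 matches in opposite orientation, while 0.0396% of all windows held at least 2 matches in any orientation. Whether a match goes with a difference in expression was not tested. Printed below are 4 windows, from a member that passed with the drug and between the lines (Slc7a11), from the asparagine synthetase gene with its known amino acid response (Asns), and from Chac1 and Atf3, which were lower in the δ line with and without the drug. They are RefSeq sequences of GRCm38.p6, 5′ to 3′ on the gene's strand, with the motif in capitals, and each ends at the base before the start. The regions are chr3:50443614-50443863 (minus strand), chr6:7693210-7693459 (minus strand), chr2:119350992-119351241 (plus strand) and chr1:191183334-191183583 (minus strand).
Slc7a11: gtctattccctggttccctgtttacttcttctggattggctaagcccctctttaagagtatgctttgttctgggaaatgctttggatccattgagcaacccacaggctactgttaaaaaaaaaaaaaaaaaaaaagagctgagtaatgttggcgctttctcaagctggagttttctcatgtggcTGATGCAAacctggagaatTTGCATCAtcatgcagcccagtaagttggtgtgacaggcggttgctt
Asns: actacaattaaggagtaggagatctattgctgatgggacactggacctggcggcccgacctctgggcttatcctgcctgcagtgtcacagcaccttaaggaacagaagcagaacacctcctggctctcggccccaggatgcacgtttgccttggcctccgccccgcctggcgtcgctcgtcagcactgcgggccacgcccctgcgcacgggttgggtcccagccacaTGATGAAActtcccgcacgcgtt
Chac1: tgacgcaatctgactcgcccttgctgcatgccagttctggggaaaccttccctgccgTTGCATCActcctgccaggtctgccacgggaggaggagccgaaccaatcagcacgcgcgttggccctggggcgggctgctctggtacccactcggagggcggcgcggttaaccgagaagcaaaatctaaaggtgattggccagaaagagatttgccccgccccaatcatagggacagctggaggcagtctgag
Atf3: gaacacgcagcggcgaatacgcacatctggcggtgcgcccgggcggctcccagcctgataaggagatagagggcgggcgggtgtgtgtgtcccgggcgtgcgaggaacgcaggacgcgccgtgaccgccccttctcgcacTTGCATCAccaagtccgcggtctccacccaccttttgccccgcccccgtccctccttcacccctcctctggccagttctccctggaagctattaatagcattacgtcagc
Counted from the start, the first base of the match lay at -66 and -47 in Slc7a11, at -23 in Asns, at -193 in Chac1 and at -110 in Atf3. A match is a description of letters and not a site shown to be bound, and no binding was measured. Atf4, Ddit3 and Trib3 had no match in their windows, which says only that these letters are not there.

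All arrays lay on 1 slide, treated ones in row 1 and untreated ones in row 2. Slide row and treatment therefore cannot be told apart, and each line kept its own columns. Of 56605 probes, between 43345 and 45080 were well above background on treated arrays, and between 39512 and 40698 on untreated arrays. One array stood apart, the untreated δ replicate 1, where 122 of 1008 tiles of 8 by 8 spots departed by more than 0.3 (log2) from the other arrays, while no other array had more than 10 such tiles. The probes of Psph, Cth, Cbs, Sesn2, Slc7a1 and Stc2 lay in such tiles there, and that of Eif2ak4 in one on the untreated δ replicate 2. For Gtf2i itself the brightest probe differed with doxycycline by 0.11 ± 0.12 (log2, SE, adjusted p = 0.716) in β and 0.09 ± 0.12 (adjusted p = 0.725) in δ cells. Between the lines the same probe was higher in δ, by 0.67 ± 0.12 without (limma adjusted p = 0.0195) and 0.65 ± 0.12 with the drug (adjusted p = 0.0207). Of 14 cortical epithelial markers, 8 were well above background on all arrays, while Psmb11, Enpep and Cd83 were on none, and 9 of 10 fibroblast markers were on all. Of 13 thymocyte markers 9 were well above background on all arrays (Cd3e, Cd3d, Cd4, Cd8a, Cd8b1, Lck, Dntt, Thy1 and Tcf7), Rag2 was on 4, and Ptprc, Cd3g and Rag1 were on none. Most of the 56605 probes were well above background on any given array, so these counts do not show which cell types were present.

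With doxycycline, no single member passed the test in either line, and most members lay slightly higher in the treated cells. Averaged over both lines, the cystine transporter gene Slc7a11 and Atf4 itself rose, and Trib3, Ppp1r15a and Asns followed just outside the threshold. The growth factor gene Gdf15, often used as a readout of this response, lay lower. Values below are scaled log2 signals, that is, the log2 of a probe's intensity minus the 75th percentile of its array, and a level is compared only between arrays, never between probes.

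Atf4, the central factor, read 7.48 and 7.63 without and 7.86 and 7.94 with doxycycline in β cells. In the δ line it read 7.10 and 7.02 without and 7.56 and 7.55 with the drug. The treated and untreated readings did not overlap in either line, and the treated ones were higher by 0.34 ± 0.10 (log2 fold change, SE, limma adjusted p = 0.154) in β and 0.50 ± 0.10 (adjusted p = 0.163) in δ, neither past the threshold. The mean of both lines was 0.42 ± 0.07, a rise of 1.34-fold that passed the test (adjusted p = 0.0393). A dimmer probe of Atf4 gave 0.02 in β and 0.33 in δ, so the size of the difference in the β line depended on the probe.

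Slc7a11 encodes the cystine-glutamate exchanger that feeds glutathione synthesis. It read -2.70 and -2.39 without and -2.12 and -1.98 with doxycycline in β cells. In the δ line it read -4.11 and -3.89 without and -2.97 and -3.14 with the drug, so the groups did not overlap in either line. The differences were 0.50 ± 0.15 (SE, limma adjusted p = 0.166) in β and 0.95 ± 0.15 (adjusted p = 0.106) in δ, and their mean, 0.72 ± 0.10 or 1.65-fold, passed (adjusted p = 0.0332). Its other probe was well above background on 3 of 8 arrays and is not used for a fold. The brightest probe is itself dim in untreated δ cells, where the lowest well-above-background readings of any probe were -5.27 and -5.28. Over the alternatives tried, its mean difference ranged from 0.51 to 0.80.

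**Figure D1:**
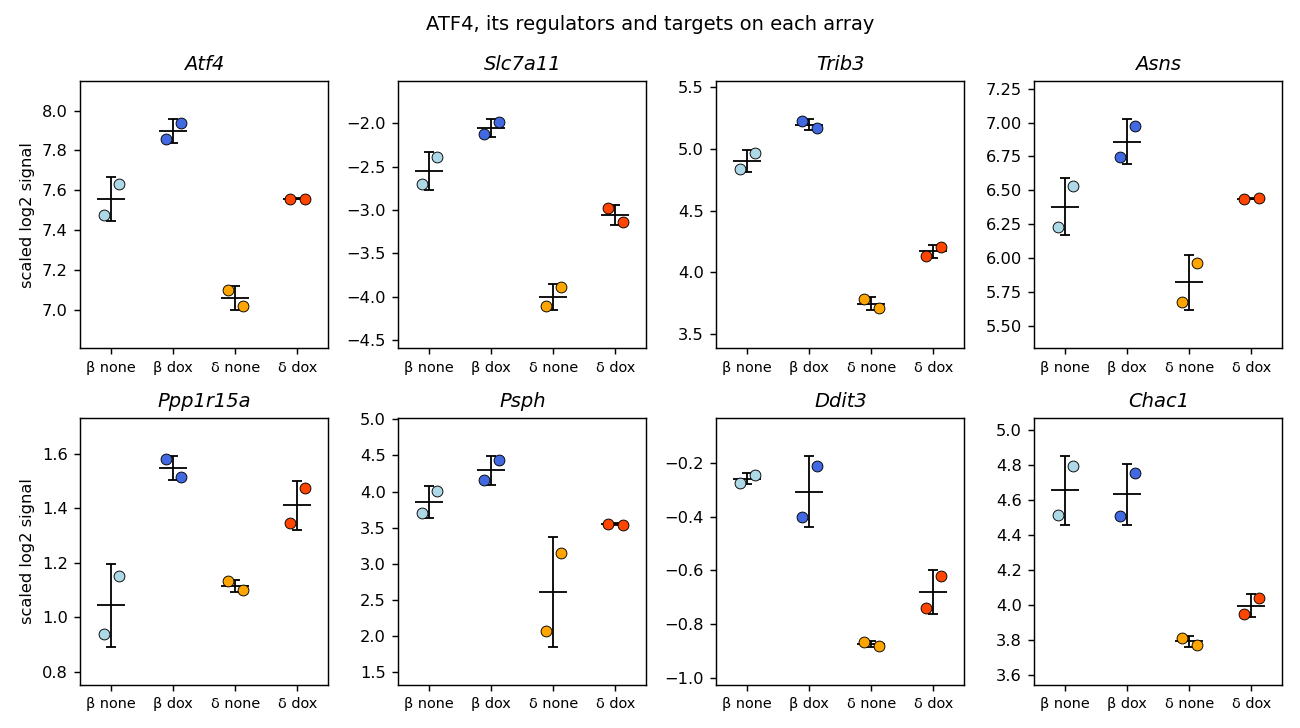
Scaled log2 signal (vertical axis, log2 of intensity minus the 75th percentile of the array) of 8 members on each of the 8 arrays, by line (β, δ) and treatment (none or doxycycline); points are arrays, horizontal bars the mean and whiskers the SD of 2. The 2 treated arrays lie above the 2 untreated arrays of the same line for Atf4, Slc7a11, Trib3, Asns, Ppp1r15a and Psph, but not for Ddit3 and Chac1 in the β line.

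Trib3, a pseudokinase made under ATF4 and CHOP that restrains ATF4, read 4.84 and 4.96 without and 5.23 and 5.16 with doxycycline in β. In the δ line the readings were 3.79 and 3.71 without and 4.13 and 4.21 with it. The groups did not overlap in either line, and the mean difference of 0.36 ± 0.07 (SE) just missed the threshold (limma adjusted p = 0.0502). Ppp1r15a encodes GADD34, the phosphatase subunit that reverses eIF2α phosphorylation. It read 0.94 and 1.15 without and 1.58 and 1.52 with the drug in β, against 1.13 and 1.10 and then 1.35 and 1.47 in δ. Its mean difference of 0.40 ± 0.08 did not pass either (adjusted p = 0.0536).

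Ddit3 encodes CHOP, the factor linked to cell death under lasting stress. It read -0.27 and -0.24 without and -0.40 and -0.21 with doxycycline in β, where the groups overlapped, and -0.87 and -0.88 without and -0.74 and -0.62 with it in δ. Chac1, which degrades glutathione and is a late target of ATF4 and CHOP, read 4.52 and 4.79 without and 4.51 and 4.76 with the drug in β. Its δ readings were 3.81 and 3.77 without and 3.95 and 4.04 with it. In the β line neither gene moved beyond its spread, and in the δ line the treated arrays of both lay above the untreated ones by 0.19 ± 0.10 (SE, limma adjusted p = 0.401) for Ddit3 and 0.20 ± 0.14 (adjusted p = 0.475) for Chac1.

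Among the enzymes of amino acid synthesis, Asns, which makes asparagine, read 6.23 and 6.53 without and 6.74 and 6.98 with doxycycline in β. In δ it read 5.68 and 5.97 without and 6.44 on both treated arrays. The mean difference was 0.55 ± 0.11 (SE, limma adjusted p = 0.0592), while a dimmer Asns probe gave only 0.08 in β and 0.07 in δ. Psph, the last enzyme of serine synthesis, read 3.70 and 4.01 without and 4.15 and 4.44 with the drug in β, and 2.07 and 3.14 without and 3.55 and 3.54 with it in δ. The value of 2.07 comes from the array with deviant tiles, and the δ difference of 0.94 ± 0.34 was 0.40 without that array. The other serine and one-carbon enzymes, Psat1, Phgdh, Shmt2 and Mthfd2, had mean differences between 0.11 and 0.24 that did not pass. The treated arrays of Shmt2 lay above the untreated ones in both lines, while its dimmer probe gave 0.48 in β and -0.003 in δ.

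Other members higher on all treated arrays of both lines were the transporter subunit Slc3a2, the arginine and lysine transporter Slc7a1, the cystathionine lyase Cth, the leucine zipper factor Cebpb and the lipoprotein receptor Vldlr, with mean differences between 0.23 and 0.33 that did not pass. The dimmer probe of Slc3a2 gave 0.56 in β and -0.01 in δ, and that of Vldlr 0.16 and 0.04. Cebpb read 3.72 and 4.07 without and 4.30 and 4.43 with the drug in β, and 4.39 and 4.20 without and 4.48 and 4.42 with it in δ. Gdf15 was the 1 member lower on all treated arrays, with -1.48 and -1.32 without and -1.85 and -1.68 with doxycycline in β, and -1.44 and -1.63 without and -1.76 and -1.77 with it in δ. Its mean difference was -0.30 ± 0.08 (SE, limma adjusted p = 0.117). Ddit4, which restrains mTORC1, read 3.69 and 3.99 without and 3.95 and 3.30 with the drug in β, and 4.41 and 3.92 without and 3.24 and 3.58 with it in δ. The δ arrays separated for Ddit4 and the β arrays overlapped, and the δ difference of -0.76 ± 0.28 did not pass (adjusted p = 0.311).

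Of the kinases, Eif2ak4 (GCN2) read 1.01 and 0.79 without and 0.77 and 1.08 with doxycycline in β, and 0.57 and 0.75 without and 1.11 and 1.16 with it in δ. Its δ difference was 0.47 ± 0.15 (SE, limma adjusted p = 0.271) and its β difference 0.02. Eif2ak3 (PERK) differed by 0.00 in β and 0.12 in δ. The remaining members, Atf3, Atf5, Cebpg, Slc7a5, Slc7a3, Sesn2, Eif4ebp1, Nupr1, Cbs and Aldh18a1, had mean differences between -0.10 and 0.10 with adjusted p of 0.478 or more. These include leucine zipper partners, the leucine transporter, the translation repressor 4E-BP1 and the enzymes of cystathionine and proline synthesis.

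Counted over the list, 0 of 31 members passed in the β line, where 0.116% of all genes were called higher and 0.131% lower, and 0 passed in the δ line, where 0.021% were called higher and 0.0526% lower. At an unadjusted limma p under 0.05, in either direction, the members numbered 9 of 31 in β and 10 of 31 in δ, while 18.2% and 15.0% of all genes lay under it. These members include Gdf15 in β and Ddit4 in δ, which lay lower with the drug. In the mean of both lines 2 members (6.45%) rose and 0 fell, against 1.53% of all genes called higher and 1.58% lower. The median difference of the members was 0.10 in β and 0.15 in δ, beside 0.03 and 0.0004 over all genes, and 22 and 23 of the 31 lay above 0, where 55.8% and 50.1% of all genes did. All treated arrays lay above all untreated arrays for 13 members in β (41.9%, against 26.6% of all genes) and for 20 in δ (64.5%, against 30.4%). They lay below for 1 member in β (20.3% of all genes) and 2 in δ (27.6%). The groups separated upward in both lines for 12 members (38.7%, against 11.3% of all genes) and downward for 1 (10.6% of all genes). These counts rest on the brightest probes. The dimmer probes of Atf4, Asns, Shmt2, Slc3a2 and Vldlr overlapped in at least 1 line.

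**Figure D2:**
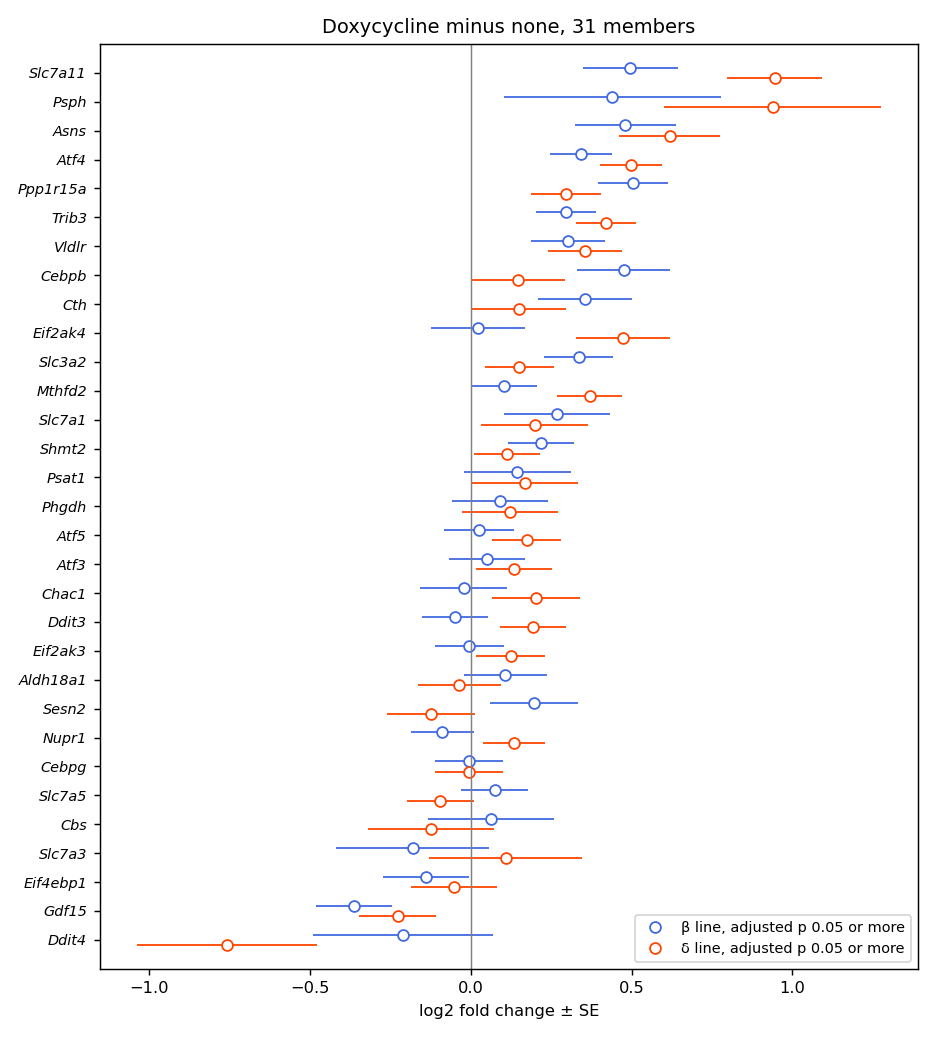
Log2 fold change with doxycycline (horizontal axis, points with SE whiskers from the limma fit) of the 31 tested members in the β line (blue) and the δ line (orange), ordered by their mean. Open points did not pass an adjusted p of 0.05, which is all of them, and 22 points in β and 23 in δ lie above 0.

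The rise of Atf4 and Slc7a11 in the mean of both lines depended on the processing and on single arrays. Neither gene passed after normexp, after median centring or with the replicate block. Atf4 did not pass without any 1 of 7 arrays, all but the untreated δ replicate 2, with an adjusted p of up to 0.202 over its alternatives, and Slc7a11 did not pass without either treated array of β, either treated array of δ, or the untreated β replicate 1 (up to 0.163). Without the probes in deviant tiles, 6 of 25 members rose in the mean (Atf4, Slc7a11, Trib3, Asns, Ppp1r15a and Vldlr, by 0.35 to 0.74) and 0 fell, against 3.75% of 17232 genes called higher and 2.39% lower. Without the untreated δ replicate 2, Psph (1.47) and Slc7a11 (1.05) passed in the δ line alone, a fit that leaves the array with deviant tiles as the sole untreated δ sample.

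The effect of doxycycline was not shown to differ between the lines for any member. The difference of the effects, δ minus β, passed for 0 of 31 members, and 0 also had an unadjusted p under 0.05, while 0% of all genes were called higher and 0.00526% lower and 7.53% had an unadjusted p under 0.05. The widest differences were -0.55 ± 0.40 (SE) for Ddit4, 0.50 ± 0.48 for Psph, 0.45 ± 0.21 for Eif2ak4 and 0.45 ± 0.21 for Slc7a11, with limma adjusted p of 0.65 or more.

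Differences between the lines were larger than those with the drug for most of the members named here. The δ line had lower levels of the stress factors Atf3, Trib3 and Chac1, of Slc7a11 and of the mitochondrial one-carbon enzymes Mthfd2 and Shmt2, both without and with doxycycline. Vldlr went the other way and was higher in δ. Atf4, Atf5 and Ddit3 were lower in untreated δ cells, and Cth and Slc3a2 in treated δ cells. The lines were compared separately among untreated and among treated arrays, which are different arrays.

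Atf3, an early stress factor of the same family as ATF4, read -1.32 and -1.17 in untreated β and -2.54 and -2.45 in untreated δ cells. With doxycycline it read -1.19 and -1.20 in β and -2.49 and -2.24 in δ. The lines were well apart in both conditions, by -1.25 ± 0.12 (log2, SE, limma adjusted p = 0.00154) without and -1.17 ± 0.12 (adjusted p = 0.00225) with the drug, that is, 2.38-fold and 2.25-fold. For Trib3, from the readings above, the δ line was lower by 2.22-fold without (-1.15 ± 0.09, adjusted p = 0.000892) and 2.04-fold with doxycycline (-1.03 ± 0.09, adjusted p = 0.00162). Both genes passed under every alternative tried in both comparisons.

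For Atf4 the difference was smaller, -0.50 ± 0.10 without (SE, limma adjusted p = 0.0241) and -0.34 ± 0.10 with the drug (adjusted p = 0.0675), of which the first passed. Its dimmer probe gave -0.64 and -0.32. Ddit3, from the readings above, differed by -0.62 ± 0.10 in untreated cells (limma adjusted p = 0.0132), and the treated difference of -0.37 ± 0.10 did not pass (adjusted p = 0.0599). Atf5, a factor translated in the same way as ATF4, read 5.11 and 5.34 in untreated β and 4.71 and 4.80 in untreated δ cells, and 5.28 and 5.22 and then 4.91 and 4.95 with doxycycline. It passed without the drug (-0.47 ± 0.11, adjusted p = 0.0399) and not with it (-0.32 ± 0.11, adjusted p = 0.101). Chac1 was lower in δ in both conditions, by -0.86 ± 0.14 (adjusted p = 0.011) and -0.64 ± 0.14 (adjusted p = 0.0297).

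**Figure D3:**
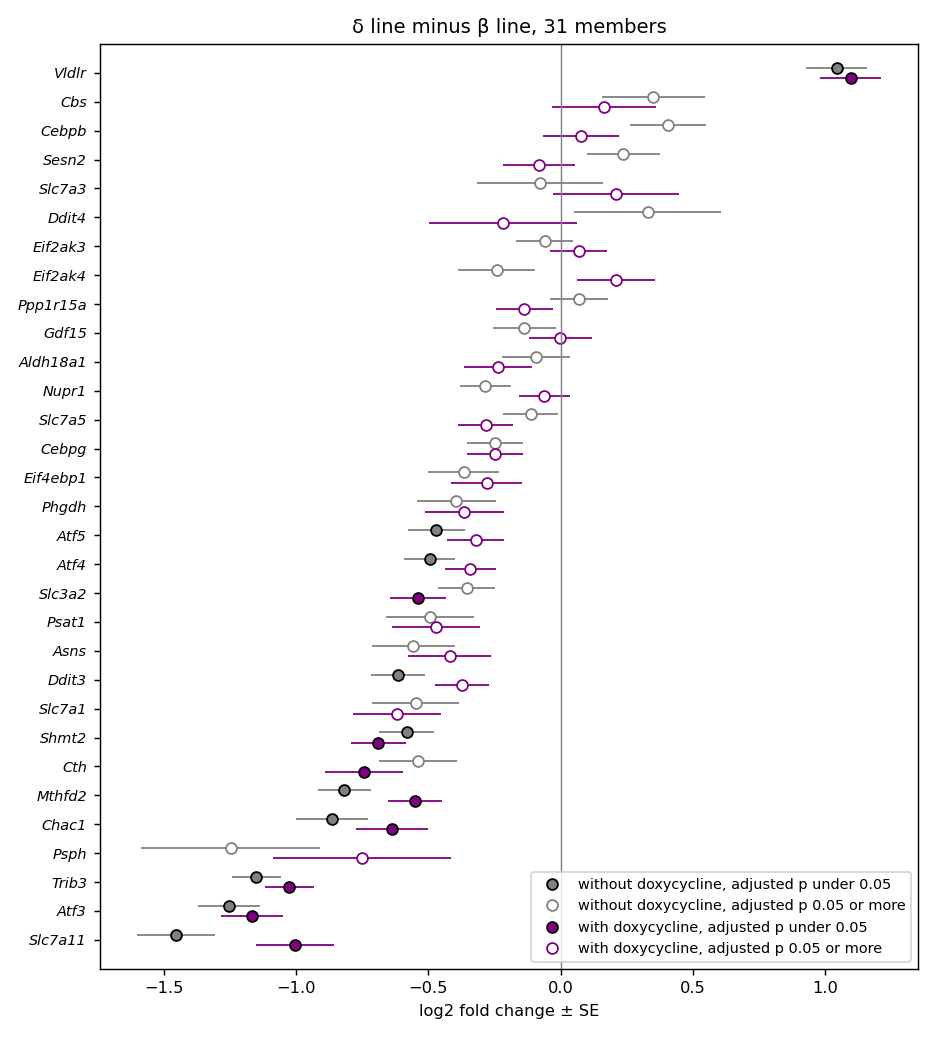
Log2 difference of the δ line from the β line (horizontal axis, points with SE whiskers from the limma fit) for the 31 tested members without doxycycline (grey) and with it (purple), ordered by their mean. Filled points passed an adjusted p of 0.05: 10 without and 9 with the drug, of which only Vldlr lies above 0.

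Mthfd2, which supplies one-carbon units in mitochondria, read 2.87 and 2.99 in untreated β and 2.18 and 2.04 in untreated δ cells, and 2.98 and 3.09 and then 2.44 and 2.52 with doxycycline. The difference was -0.82 ± 0.10 (SE, limma adjusted p = 0.00451) without and -0.55 ± 0.10 (adjusted p = 0.019) with the drug. Shmt2, which splits serine for the same pathway, read 3.35 and 3.53 in untreated β, 2.90 and 2.81 in untreated δ, 3.62 and 3.70 in treated β, and 2.93 and 3.01 in treated δ cells. It was lower in δ by -0.58 ± 0.10 (adjusted p = 0.0169) and -0.69 ± 0.10 (adjusted p = 0.00948). Its dimmer probe gave -0.32 and -0.81, and with the mean over probes the untreated difference of Shmt2 did not pass. By their brightest probes, Asns, Psat1 and Phgdh lay lower on both δ arrays in each condition, by 0.36 to 0.56 on the log2 scale, and did not pass (differences from -0.56 to -0.36). The dimmer Psat1 probe gave -0.20 without the drug, where the arrays of the lines overlapped, and -0.47 with it. For Asns the dimmer probe gave -0.50 and -0.51. Psph differed by -1.25 ± 0.34 without the drug and by -0.71 without the untreated δ replicate 1, neither past the threshold.

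Among the transporters, Slc7a11 was lower in δ by 2.74-fold without (-1.46 ± 0.15 SE, limma adjusted p = 0.00212) and 2.01-fold with doxycycline (-1.01 ± 0.15, adjusted p = 0.00882). Slc3a2, the common subunit of the cystine and leucine transporters, read 4.43 and 4.62 in untreated β, 4.24 and 4.10 in untreated δ, 4.90 and 4.82 in treated β, and 4.30 and 4.34 in treated δ cells. It passed with the drug (-0.54 ± 0.11, adjusted p = 0.024), where its dimmer probe gave -0.32. Without the drug the brightest probe gave -0.35 and the dimmer one 0.25, so the direction there is unsettled. Slc7a1 differed by -0.55 and -0.62, and Slc7a5 and Slc7a3 by -0.28 to 0.21, none past the threshold.

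Cth, which makes cysteine from cystathionine, read -1.18 and -0.89 in untreated β, -1.51 and -1.63 in untreated δ, -0.83 and -0.53 in treated β, and -1.43 and -1.41 in treated δ cells. It passed with doxycycline (-0.74 ± 0.15 SE, limma adjusted p = 0.0236) and not without (-0.54 ± 0.15, adjusted p = 0.0661). Vldlr read 2.31 and 2.14 in untreated β, 3.39 and 3.15 in untreated δ, 2.55 and 2.51 in treated β, and 3.62 and 3.63 in treated δ cells. It was higher in δ by 2.06-fold (1.04 ± 0.12, adjusted p = 0.00303) and 2.14-fold (1.10 ± 0.12, adjusted p = 0.00272), and its other probe gave 1.12 and 1.01. The other members, among them both kinases, Ppp1r15a, Gdf15, Sesn2, Ddit4, Cebpb and Cebpg, did not pass in either condition, with differences between -0.37 and 0.41.

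Of 31 members, 1 (3.23%) was called higher and 9 (29.0%) lower in untreated δ cells, against 7.93% of all genes higher and 5.28% lower. With doxycycline 1 was called higher and 8 (25.8%) lower, against 9.75% and 5.51% of all genes. The median difference was -0.37 and -0.32, beside 0.02 and -0.01 over all genes, and 25 of 31 members lay below 0 in each comparison, where 47.0% and 51.0% of all genes did. The 7 members called in both comparisons, 7 of 10 and 7 of 9, were Atf3, Chac1, Mthfd2, Shmt2, Slc7a11, Trib3 and Vldlr. None of the 31 passed the test of a difference between the conditions, so a call in 1 condition alone does not show that the gap changed.

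The lines also differed in cell type markers. In untreated δ cells the keratins Krt8 (-1.88) and Krt14 (-3.74) were lower, all past the threshold, as were the higher values of the cortical marker Cxcl12 (0.83) and the mesenchymal receptor Pdgfrb (2.68). Of the markers measured, 3 of 10 cortical epithelial genes were lower and 1 higher, 1 of 6 medullary genes was lower, and 2 of 10 fibroblast genes were higher and 0 lower. The summed fibroblast level lay between 9.64 and 9.72 (log2 of the summed scaled signals) on untreated β and between 9.61 and 9.73 on untreated δ arrays, and the summed cortical level between 6.40 and 6.61 and between 6.09 and 6.12. The summed medullary level lay between 5.08 and 5.30 on untreated β and between 2.52 and 2.66 on untreated δ arrays, and the summed thymocyte level between 6.10 and 6.23 and between 4.29 and 5.04, with 1 of 10 thymocyte genes (Tcf7) higher and 0 lower in δ. On treated arrays the sums in β and δ lay between 9.79 and 9.91 and between 9.72 and 9.73 (fibroblast), 6.46 and 6.60 and 6.32 and 6.36 (cortical), 4.95 and 5.17 and 2.38 and 2.52 (medullary), and 6.18 and 6.41 and 4.93 and 5.03 (thymocyte). Such sums are set mainly by the brightest genes, and on single arrays Krt14 alone reached 5.14 and Thy1 5.76. Thy1 is in both the thymocyte and the fibroblast list and ranged from -0.004 to 5.76 over the arrays. The summed thymocyte level is therefore not specific to thymocytes. Over the measured medullary genes the median difference, δ minus β, was -0.03 without and -0.48 with the drug. Over the thymocyte genes it was 0.15 and -0.30, and over the cortical genes -0.23 and -0.43. Over the fibroblast genes it was 0.0004 and -0.04, with 5 genes above and 5 below 0 in each comparison. In treated δ cells 2 fibroblast genes were called higher and 1 lower (Col1a1, -0.59). There 1 cortical gene was called higher and 2 lower, and 2 medullary genes were called lower. With doxycycline, 0 genes of these 4 lists passed in either line or in the mean. The part of these differences in the members' values was not tested.

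With 1 array left out, the untreated comparison called between 7 and 11 members. Without the untreated β replicate 2, Atf4 (-0.42), Atf5 (-0.36) and Shmt2 (-0.49) did not pass, nor did they without either treated δ array, and Atf4 and Atf5 also did not without either untreated δ array, nor Atf5 without either treated β array. The treated comparison fell to 3 calls, Atf3, Trib3 and Vldlr, when replicate 2 of treated β or any treated δ array was left out, and Chac1, Mthfd2 and Slc3a2 also missed the threshold when replicate 1 of treated β was left out.

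Genes beyond the list that act in the same pathway were counted as background. Of 20 cytosolic aminoacyl-tRNA synthetases, which charge tRNAs and include many ATF4 targets, 0 passed with doxycycline in either line or in the mean. In untreated δ cells 0 were higher and 4 lower than in β, among them Mars1 (-0.76), Cars (-0.50) and Yars (-0.37), and with doxycycline 2 were lower, Mars1 (-0.69) and Vars (-0.47). The list's median between the lines was -0.29 without and -0.23 with the drug. Of 17 mitochondrial synthetases, Lars2 was higher (0.46) and Mars2 lower (-0.86) in untreated δ cells, and Iars2 (0.39) and Hars2 (0.37) were higher in treated δ cells.

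Among 12 further amino acid transporters, the glycine transporter Slc6a9 (-0.94), Slc43a1 (-1.17) and Slc7a6 (-0.42) were lower in untreated δ cells. With doxycycline Slc43a1 (-1.47) and Slc6a9 (-0.78) were lower and Slc36a1 (0.43) higher. In the mean of both lines the glutamine transporter Slc1a5, itself known as an ATF4 target, fell by 0.46 with doxycycline (limma adjusted p = 0.0405). Of 17 serine, one-carbon and proline partners, 0 passed with the drug. Between untreated lines Mthfd1l, the partner of Mthfd2, was lower (-0.74), and the proline catabolic enzymes Prodh (1.27) and Aldh4a1 (0.50) were higher in δ. With doxycycline Mthfd1l (-0.50), Prodh (0.91) and Aldh4a1 (0.65) passed in the same directions.

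The mitochondrial stress relay and unfolded protein response, 17 genes, had 0 members past the threshold with doxycycline in either line or in the mean, and its median difference was -0.10 in β and 0.05 in δ. The hormone gene Fgf21, a target of ATF4, was lower in δ by -1.01 without and -1.13 with the drug. Of 15 genes for eIF2, eIF2B and their regulators, Dnajc3, an inhibitor of the eIF2α kinases, fell by 0.44 in the mean with doxycycline (adjusted p = 0.0486 by limma). Of 21 genes of the ATF6 and XBP1 branches, which serve folding in the endoplasmic reticulum, 0 rose and 3 fell in the mean with doxycycline, Manf (-0.57), Sdf2l1 (-0.44) and Edem1 (-0.34), and the list's median was -0.06 in β and -0.20 in δ. Of 19 other leucine zipper factors, Fos rose (0.93) and Fosl1 fell (-0.47) in the mean with the drug. The percentages of all genes given above for each comparison apply to these counts.

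**Figure D4:**
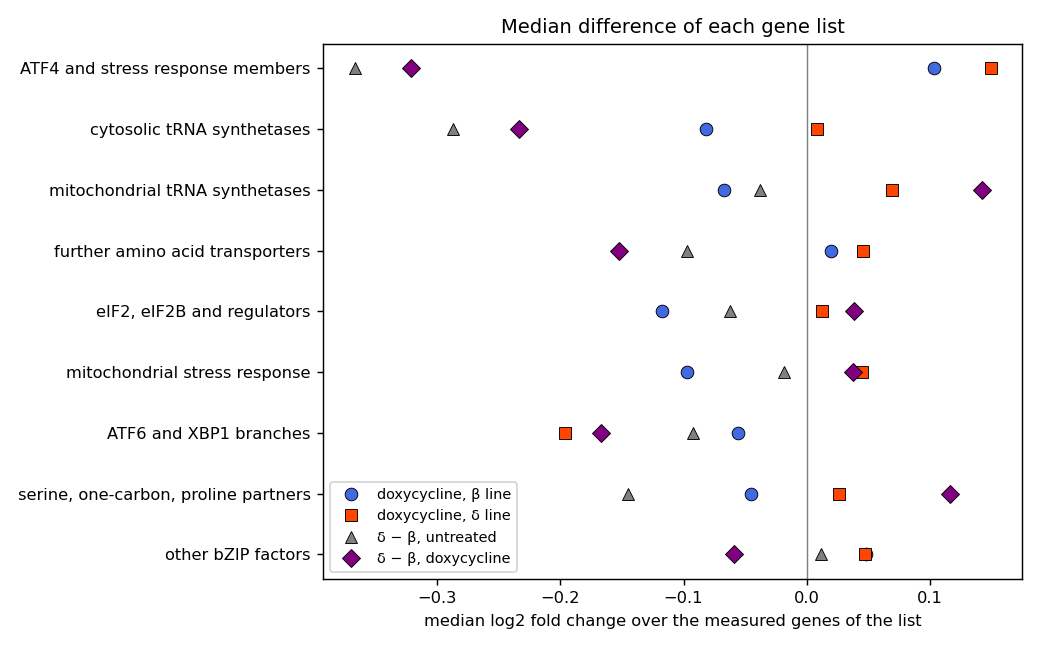
Median log2 difference over the measured genes of each list (horizontal axis) for the 31 members and 8 related lists, with doxycycline in the β line (circles) and δ line (squares) and for δ minus β without (triangles) and with the drug (diamonds). The members lie at 0.10 and 0.15 with doxycycline and at -0.37 and -0.32 between the lines.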

How the data were processed

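RNA of 8 samples was hybridised to one-colour Agilent mouse arrays. Per the file headers, the authors quantified the images with version 11.5.1.1 of Agilent Feature Extraction, and the deposited values are linear intensity per spot after its background subtraction and spatial detrending, without scaling across arrays. That software's multiplicative detrending had a recorded size of 0 on 3 of 4 treated arrays and between 0.0671 and 0.126 on untreated ones. The deposited flags for outlying, saturated and well-above-background spots are its own.

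From these, log2 intensity was averaged over a probe's unflagged spots, and the 75th percentile of the array was taken off, with no pseudocount or offset. Of 56605 probes, 98 were left out as flagged, 32931 were named by accession through a RefSeq table of GRCm38.p6 (the headers name mm9, so no probe is placed on it, and its coordinates are given for the promoter windows only) and 23576 had no match. A probe was kept if any group had it well above background on its 2 arrays (27215), and the brightest stood for its gene, giving 19023 genes. No probe was saturated. The 4 group means were estimated from all arrays together with lmFit and eBayes of limma 3.58.1 under R 4.3.3, leaving 4 residual degrees of freedom. Benjamini-Hochberg adjustment ran over all genes, with a threshold of 0.05. The script was tested on simulated data. Replicates correlated across genes at 0.965 to 0.997, and none were identical. The number of arrays, 2 a group, limits the precision.

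Alternatives were quantile normalization, normexp with an offset of 50 on the median spot intensity, median centring, no filter, the mean over probes, no probes in deviant tiles, the 4 compared arrays alone, a replicate block and each array left out. All members are named, and those past the threshold, 5 core members and the 4 largest differences of each comparison are given on every array. The members and lists were chosen with earlier results of these data known. Some list genes that passed are not reported here.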

Additional observations from a re-analysis of the deposited data

How the results depend on the processing

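None of the 21 called member values changed sign under any alternative tried, and 6 passed under all of them (Atf3 and Trib3 in both line comparisons, Slc7a11 between untreated and Vldlr between treated lines). Of the 165 values that did not pass, 46 changed sign under at least 1 alternative. For the mean of both lines with doxycycline, the 2 members called became 4 after quantile normalization, 0 after normexp, 0 after median centring, 5 with no filter, 1 with the mean over probes, 6 without the deviant tiles and between 0 and 6 with 1 array left out. The fit reported did not pair arrays by replicate number. The differences between replicates correlated at -0.33 to 0.12 between groups, which cannot show whether the numbers mark a pairing. With the replicate block 0 members passed in that mean. In the δ line 1 member (Slc7a11) passed with no filter, and between 0 and 2 with 1 array left out. Between untreated lines 16 members passed after quantile normalization and 3 with the 4 arrays compared alone. Between treated lines 5 passed after median centring and between 3 and 11 with 1 array left out. Apart from constructions that use fewer arrays or genes, the cause of these changes was not tested. After median centring, the share of higher genes among all called genes was 72.0% between treated lines, against 63.9% in the fit reported. With doxycycline in the β line, 22 of 47 called genes were higher in the fit reported (46.8%). Quantile normalization gave 15 of 53 (28.3%), normexp 6 of 19 (31.6%) and median centring 4 of 14 (28.6%). For the δ line the fit reported gave 4 of 14 (28.6%), and quantile normalization 2 of 18 (11.1%). Normexp gave 0 of 5 there (0%), and median centring 2 of 7 (28.6%). These shares within a line rest on at most 53 called genes and cannot show a change of direction over all genes. A fit with the slide as a block could not be made, since there was 1 slide.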
